A study of Macaca mulatta with 5 samples.

Results

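Islands of dimethylated histone H3 lysine 4 (H3K4me2) that held a larger share of the reads in an infant rhesus macaque cortex than in 3 older ones are described here. They were chosen by the read counts themselves. Reads were counted in each autosomal island of the deposited list and divided by the library's reads in all autosomal islands, and an island was taken when it held at least 100 reads over the 4 libraries and its value at 0.4 yr was at least 1.5 times each of the values at 9, 22 and 26 yr. Of 59189 deposited islands, 58414 lay on autosomes, 35494 of these had enough reads to be tested, and 919 met the rule, which is 2.59% of those tested. The mirror rule, with 0.4 yr lower than each older age by the same ratio, took 714 islands (2.01%). Because the infant-to-older ratio chose the islands, it is given below as a description and was not tested.

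Prefrontal cortex of 4 animals, aged 0.4, 9, 22 and 26 years, was profiled by chromatin immunoprecipitation and sequencing, with about 200 mg of tissue per immunoprecipitation. The antibody recognises dimethyl-H3K4, and the input, which had no antibody, is 1 pool of 7 animals that includes these 4. Each age is 1 library from 1 animal, so a difference between ages is also a difference between animals, and the labels give neither strain, treatment nor sex. From the youngest to the oldest animal, the autosomes held 8402719, 9405440, 10155000 and 10810296 reads, and the input held 13738020. The share of these that lay in islands was 24.7% at 0.4 yr, against 30.6%, 33.8% and 33.2% at 9, 22 and 26 yr and 11.2% in the input. The tissue is a mixture of cell types, so fewer cells that carry the mark and less mark per cell cannot be told apart.

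H3K4me2 is laid down by methyltransferases of the KMT2 (COMPASS) family and removed by demethylases such as KDM1A. It marks the flanks of active promoters, where the trimethylated form occupies the centre, and it marks enhancers, including ones that are poised and not yet active. The primate prefrontal cortex matures for years after birth, with synapses being formed and pruned and axons being myelinated, and enhancer use in neurons and glia is known to change over that time. The genome build is not given in the sources used here, and no annotation or sequence of the build of these files was used. Islands are therefore named by their position in the files' own coordinates, and their genes, promoters and sequences, like the cell-type markers of the tissue, were not analysed here.

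The typical infant-high island was a weakly enriched one with few reads. The members held a median of 38 infant reads, for which the exact 95% Poisson interval is 26.9 to 52.2. Their medians at 9, 22 and 26 yr were 29 (interval 19.4 to 41.6), 34 (23.5 to 47.5) and 36 (25.2 to 49.8). The median raw count was thus highest in the infant, although its library has the fewest island reads. Per 1000000 island reads the medians were 18.3 in the infant and 10.1, 9.92 and 10.0 in the older animals. Over all tested islands they were 18.3, 17.7, 17.8 and 17.5. The members thus stood at the level of the typical tested island in the infant and below it in each of the 3 older animals. All intervals cover counting error only, since reads carried no molecular identifiers and no age had a replicate.

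Most members lay near the threshold. The ratio of 0.4 yr to the highest older value had a median of 1.62, with the middle 50% of the members between 1.56 and 1.77 and the highest at 3.82. Just inside the threshold, chr1:22275601-22278800 held 27, 25, 26 and 31 reads in order of age and chr1:226585801-226588400 held 27, 25, 28 and 31, while chr7:167696401-167701200 held 59, 45, 65 and 60. Just outside it, chr6:135794001-135796400 held 26, 23, 28 and 30, chr11:53228201-53231000 held 26, 23, 27 and 30, and chr13:27261601-27265600 held 26, 21, 27 and 30. A difference of 1 read places such islands on one side or the other. At the median counts of a member in the infant and in its highest older library, the exact counting interval of the log2 ratio ran from 0.11 to 1.5. When the ratio was asked of only 2 of the older libraries, 1652 islands met it with 9 yr left out, 1551 with 22 yr left out and 1428 with 26 yr left out.

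How far these islands stood above the older animals depended on what the libraries were scaled to. Scaled to island reads, the median log2 ratio of 0.4 yr over 9, 22 and 26 yr was 0.86, 0.88 and 0.85 for the members, against 0.01, 0.00 and -0.00 for all tested islands. Scaled to background reads, meaning reads in 10 kb bins that overlap no island, it was 0.39, 0.20 and 0.22 for the members, against -0.46, -0.68 and -0.64 for all tested islands. The infant library has fewer island reads per background read, and the older libraries exceed it 1.39, 1.60 and 1.56 times in order of age. With background scaling 759 members lay above 22 yr, 860 above 26 yr and 715 (77.8%) above all 3 older libraries. Of all 35494 tested islands, 2609 lay above 22 yr, 3127 above 26 yr and 870 (2.45%) above all 3. All 919 lay above 9 yr, which the rule fixes, since its 1.5-fold ratio exceeds the factor of 1.39 by which the scalings differ there. At 22 and 26 yr the factors of 1.60 and 1.56 are only slightly above 1.5, so the rule largely sets those counts too. The 1.5-fold rule itself took 12 islands with background scaling (0.0338% of those tested), 76 with total autosomal reads (0.214%), and 632 under the trimmed mean of M values (1.78%), and these are members by construction, since each of these scalings lowers the infant's ratio to every older library. After input reads were subtracted it took 2067 islands (5.82%), among them all 919 members. That count still scales each library to its own island reads, after subtraction, so the overlap is no separate support for the members. With subtraction and background scaling together the rule took 79 islands. Without subtraction, an infant excess of 1.5-fold is therefore, for 907 of the 919 members, an excess relative to other islands and not relative to background.

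**Figure D1:**
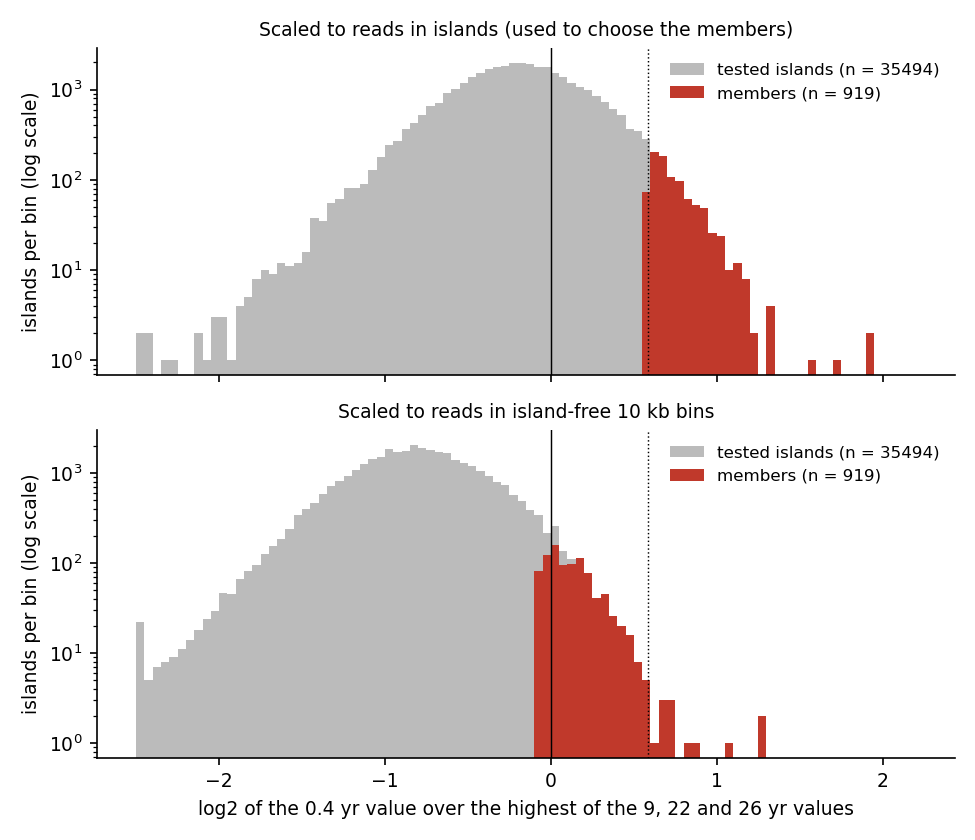
Number of islands (log scale) by the log2 ratio of the 0.4 yr value to the highest of the values at 9, 22 and 26 yr, for the 35494 tested islands in grey and the 919 members in red, scaled to island reads above and to reads in island-free bins below. The solid line marks equal levels, the dotted line the 1.5-fold threshold, and the leftmost bin also holds all lower values. With background scaling the tested islands shift to the left and 12 members lie at or beyond the threshold.

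Set against the input, these islands were somewhat more enriched in the infant than in the older animals, where other islands were less so. The fold of each library over input, scaled by background reads, had a median over the members of 2.72 in the infant and of 2.06, 2.30 and 2.29 at 9, 22 and 26 yr. Over all tested islands it was 2.62, 3.56, 4.06 and 3.93. Over the 714 islands of the mirror rule it was 2.50, 6.41, 7.63 and 7.33. On this measure the 3 sets as wholes thus had similar medians in the infant, and they separated in the older libraries. The sets differ in how many weak islands they hold. Tested islands were also split into 4 groups by the fold in the authors' deposited table, as described below. In each group the members' median was above that of the tested islands in the infant and below it in each older library. In the weakest group the infant medians were 2.43 for members and 1.74 for tested islands. The rule favours such a difference, so it is a description. The same input divides every library, so differences between ages here restate, on the background scale, the ratios that chose the sets. The same holds for the count below of islands that reached a fold at 0.4 yr only. A fold of at least 2 over input was reached at 0.4 yr by 898 of the 919 members (97.7%) and by 73.2% of the tested islands. The rule favours a high infant value, so this difference is no separate support for an infant enrichment. It was reached at 0.4 yr and in none of the older libraries by 64 members (6.96%) and by 74 of all tested islands (0.208%).

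**Figure D2:**
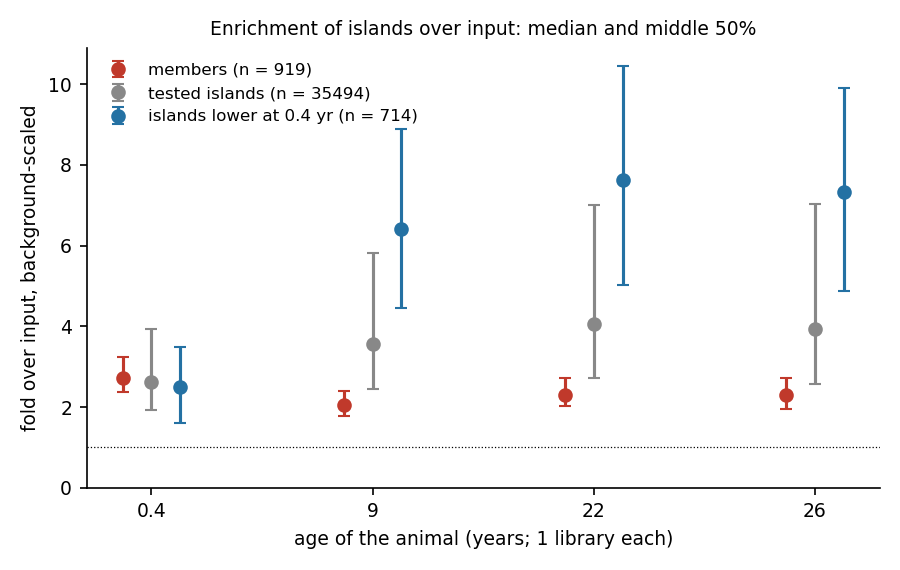
Fold over input, scaled by background reads, in each library (x axis, age of its 1 animal in years) for the members, all tested islands and the islands lower at 0.4 yr. Points are medians over islands and bars span the middle 50% of islands, not replicates. The members are at 2.72 in the infant and at 2.06 to 2.30 in the older animals, while all tested islands go from 2.62 to between 3.56 and 4.06.

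The density of reads around the island centres describes the same island reads that the rule used. Within 500 bp of the island centre the members had 3.02 reads per kb per 1000000 background reads in the infant and 2.12, 2.45 and 2.47 in the older libraries. Between 8 and 10 kb from the centre they had 1.06, 1.22, 1.36 and 1.28, so the infant library was the highest at the centre and the lowest in the surroundings. The centre stood 2.84 times above the surroundings at 0.4 yr and 1.74, 1.80 and 1.93 times in the older libraries. Over all tested islands these ratios were 2.39, 2.64, 2.95 and 3.03. The input also peaked at these centres, 1.57 times above its surroundings for the members and 1.3 times for all tested islands. Inside the members the reads were spread evenly, with the middle 50% of the width 1.09, 1.07, 1.07 and 1.10 times as dense as the outer parts in order of age and 1.07 times in the input, against 1.17, 1.23, 1.28 and 1.27 over all tested islands and 1.01 in the input.

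**Figure D3:**
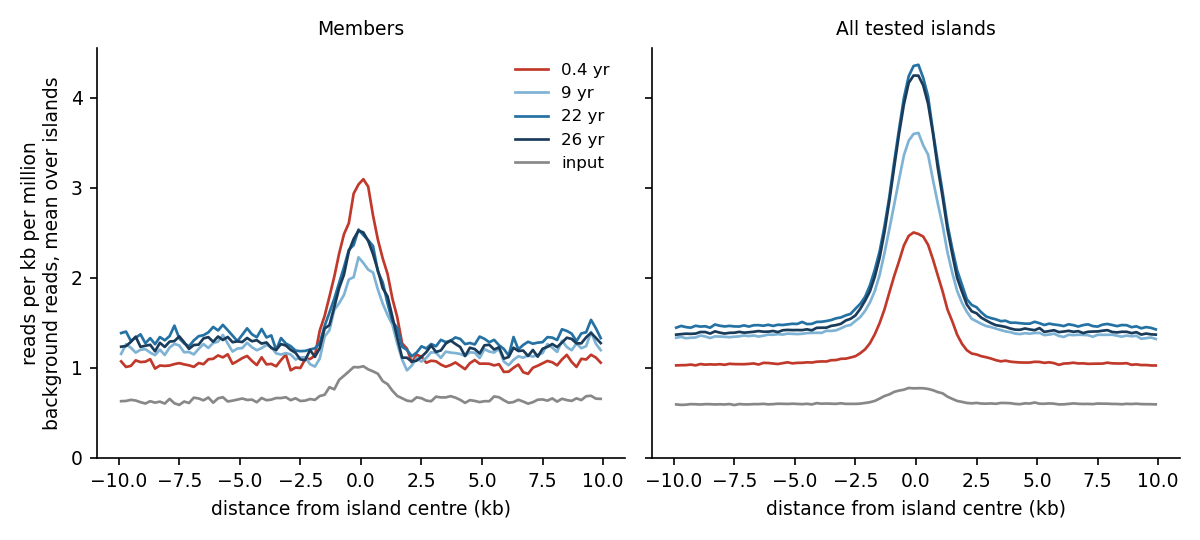
Mean reads per kb per 1000000 background reads in 200 bp bins from 10 kb before to 10 kb after the island centre, for each H3K4me2 library and the input, over the 919 members (left) and the 35494 tested islands (right). In the members the infant line is the highest at the centre (3.02 within 500 bp) and the lowest H3K4me2 line at 8 to 10 kb (1.06), whereas over all tested islands it is the lowest H3K4me2 line throughout. Neighbouring islands are included in the outer bins.

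The rule does not use the DNA outside islands. Scaled to background, reads outside islands within 20 kb of a member were lower in the infant than in the older animals, by a median log2 ratio of -0.10, -0.17 and -0.09 to 9, 22 and 26 yr. The same held around all tested islands, at -0.23, -0.22 and -0.18. The flanks of 101 members (11%) were above all 3 older libraries, against 6.01% of the flanks of tested islands. The 1.5-fold threshold was reached by 0 member flanks and by only 2 flanks of all tested islands (0.00563%). Scaled to island reads instead, the signs were the other way, with medians of 0.37, 0.51 and 0.55 around members and 0.25, 0.46 and 0.45 around tested islands, and 93 member flanks (10.1%, against 5.18% of the tested) reached 1.5-fold over each older library. With that scaling the DNA around a member was therefore higher in the infant too, by less than the members themselves.

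Members came mainly from the weak end of the island list. The fold over input in the authors' deposited table, which pools the 4 libraries and is the authors' own value for each island, had a median of 1.71 for members (middle 50% from 1.51 to 2.00) and of 2.59 for tested islands. With the tested islands in 4 groups by that fold in the authors' deposited table, cut at its quartiles, members made up 548 of 8872 in the weakest (6.18%), 303 of 8853 in the next (3.42%), 64 of 8892 (0.720%) and 4 of 8877 in the strongest (0.0451%). Islands lower at 0.4 yr ran the other way, from 44 in the weakest group (0.496%) to 355 in the strongest (4.0%). This fold draws on the libraries that the rule used, so this split is a description. Among islands with 200 to 299 reads the member shares from the weakest to the strongest group were 3.83%, 2.19%, 0.422% and 0 of 2170 islands. Read number moved with membership as well. The share of members was 5.49% at 100 to 149 reads, 3.13% at 150 to 199, 1.49% at 200 to 299, 0.484% at 300 to 499 and 0.162% at 500 or more.

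The input, which the rule did not use, was denser at members. They held a median of 8.64 input reads per kb against 7.71 over tested islands, and 7.06 over islands lower at 0.4 yr. In 4 groups of tested islands by input density, members made up 1.19%, 2.14%, 2.43% and 4.55% from the sparsest to the densest, and the islands lower at 0.4 yr 3.17%, 1.76%, 1.66% and 1.47%. The surroundings were denser in input too, at a median of 6.0 input reads per kb of flank for members and 5.19 for tested islands. The part of local input density in the result was not tested. Members were not narrow, with a median width of 3200 bp against 3600 bp for tested islands and 2600 bp for islands lower at 0.4 yr.

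**Figure D4:**
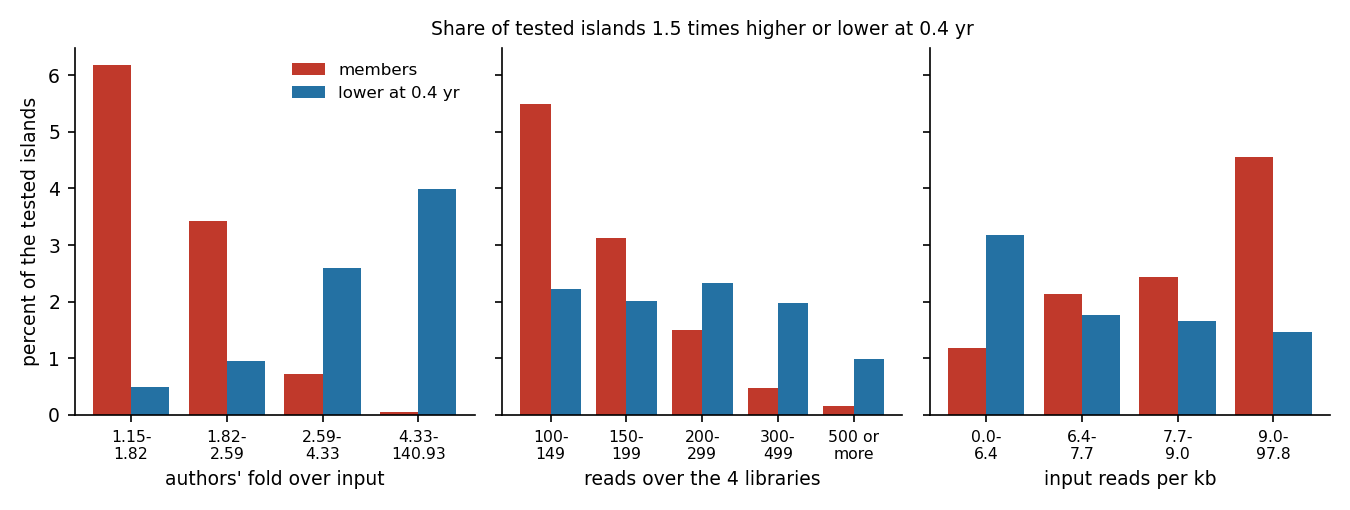
Percent of the tested islands that were at least 1.5 times higher (red, members) or lower (blue) at 0.4 yr than at each older age, in 4 groups by the authors' fold over input, in 5 groups by reads over the 4 libraries and in 4 groups by input reads per kb. Members fall from 6.18% to 0.0451% with the fold and from 5.49% to 0.162% with the reads, and go from 1.19% to 4.55% with input density.

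The 3 members with the largest infant excess are 600 to 1200 bp wide. At chr5:181734001-181734600 the 4 libraries held 106, 29, 38 and 48 reads in order of age, which is 51.1, 10.1, 11.1 and 13.4 per 1000000 island reads. The infant stood 3.82 times above the highest older value (log2 1.93, exact 95% counting interval 1.43 to 2.46), and its flanks held 80, 73, 94 and 92 reads. This island is 600 bp wide and holds 70.0 input reads per kb, where the members span 3.67 to 80.0, and 31.1% of its infant reads lay on the forward strand. At chr6:5599401-5600600 the reads numbered 50, 18, 19 and 23, a ratio of 3.76 (log2 1.91, 1.17 to 2.69), with flanks of 135, 110, 138 and 128. At chr4:166297601-166298600 they numbered 64, 27, 29 and 34, a ratio of 3.26 (log2 1.70, 1.08 to 2.35), with flanks of 171, 174, 195 and 192. The chromosome 6 and 4 islands held 18.3 and 26.0 input reads per kb, with 32.0% and 39.1% of infant reads on the forward strand. The medians over members were 8.64 input reads per kb and 50.0%. In each of these 3 islands the infant alone was high. Whether their flanks were also higher in the infant turned with the scaling. Scaled to island reads like the islands, the infant flank was 1.41, 1.62 and 1.37 times the highest older one on chromosomes 5, 6 and 4, and scaled to background reads 0.879, 1.01 and 0.905 times.

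Of the next islands by ratio, chr19:35855601-35859000 is the widest of the 10 and has little input. It held 50 reads at 0.4 yr and 22, 28 and 20 in the older libraries (ratio 2.95, log2 interval 0.87 to 2.28), on 5.88 input reads per kb, with flanks of 88, 95, 103 and 101. The pair on chromosome 13, chr13:135075801-135077800 and chr13:85384601-85385600, held 40, 19, 26 and 27 reads and 37, 16, 22 and 26 reads. At chr3:39703401-39705200 there were 39, 22, 19 and 27 reads, at chr17:93005001-93007000 there were 45, 27, 23 and 27, and at chr11:2842201-2844200 there were 81, 45, 57 and 41. Their ratios lay between 2.32 and 2.54. At chr10:49506601-49507600, with 48, 27, 22 and 30 reads (ratio 2.47), the flanks were higher in the infant as well, at 170 reads against 126, 123 and 134. Over the 10 islands the infant flank was 1.23 to 1.87 times the highest older one with island scaling, above it in all 10, and 0.879 to 1.35 times with background scaling, above it in 5.

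These islands also made up most of the 12 that kept a 1.5-fold excess with background scaling. The other members of that group were chr10:3250801-3253000 with 46, 28, 26 and 29 reads, chr1:15881801-15885800 with 52, 32, 27 and 20, and chr7:68752201-68756000 with 50, 33, 31 and 35. Scaled to background, the infant stood 1.52 to 2.46 times above the highest older library in the 12, and 1.91 to 4.02 times with input reads subtracted too. Scaled instead to island reads after subtraction, it stood 3.44 to 7.56 times above. They were 600 to 4000 bp wide, and 5 were at most 1200 bp. All 12 belonged to the weaker pair of groups by the authors' fold, with folds of 1.36 to 2.18 in the authors' deposited table, and 10 of them to the group densest in input. Their flanks, scaled to background, had median log2 ratios of 0.00, -0.05 and 0.01 to 9, 22 and 26 yr.

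**Figure D5:**
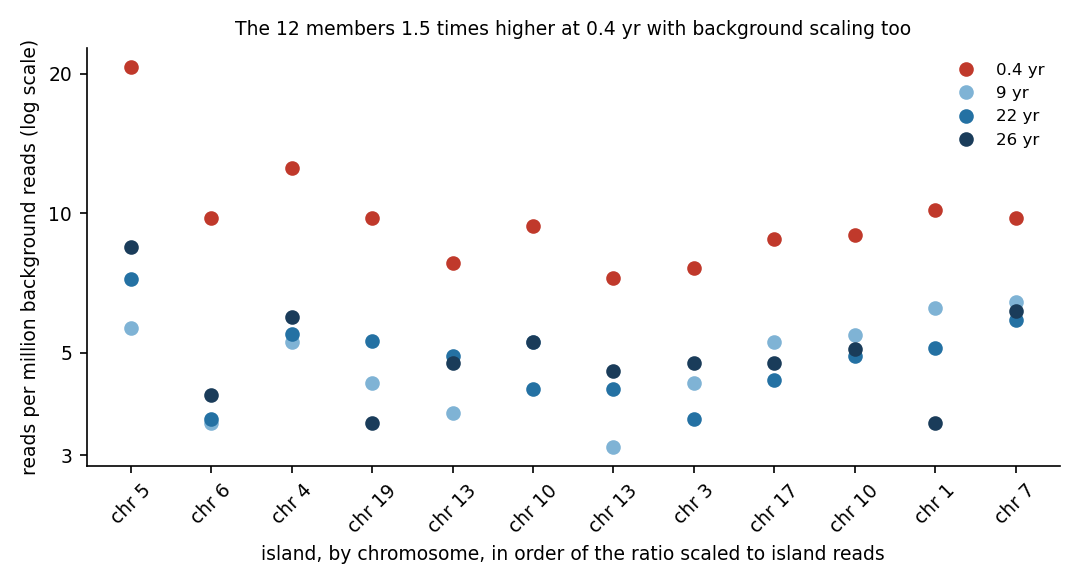
Reads per 1000000 background reads (log scale) in each library for the 12 members at least 1.5 times higher at 0.4 yr with background scaling too, in order of the ratio scaled to island reads. The infant point (red) is the highest in each of the 12, at 20.7 in the chromosome 5 island against 5.66, 7.2 and 8.44 in the older libraries. Points of equal value hide each other.

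Members with many reads had narrower counting intervals. The most read was chr16:31463801-31471200, with 279, 230, 236 and 272 reads, or 134, 79.8, 68.8 and 75.8 per 1000000 island reads. Its ratio was 1.68 (log2 interval 0.50 to 1.01), its fold of 1.15 in the authors' deposited table was the lowest of the members, and it held 301 input reads. The next, chr16:26165201-26171800, held 204, 143, 142 and 179 reads (ratio 1.97, interval 0.68 to 1.28) on 156 input reads, and chr10:496801-499600 held 189, 109, 176 and 191 (1.71, 0.48 to 1.07) on 91. At chr7:51266001-51275800 there were 183, 151, 102 and 168 reads, at chr11:114051601-114061000 157, 110, 125 and 149, and at chr9:123261801-123270800 146, 82, 159 and 138. The islands chr1:55973801-55980000 and chr17:93144001-93151600 completed the 8, with 140, 106, 135 and 136 reads and 110, 99, 118 and 118. With background scaling the ratio in these 8 lay between 0.95 and 1.27, so none kept a 1.5-fold excess.

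Few strongly enriched islands were infant-high, and like most members those with the highest folds lay near the threshold. In the authors' deposited table the highest fold was 5.49 at chr13:60708401-60710600, with 35, 30, 38 and 36 reads, followed by 4.86 at chr11:117906801-117908600 (31, 23, 24 and 33 reads), 4.84 at chr6:10058401-10060000 (33, 25, 25 and 38), 4.69 at chr19:36160201-36163400 (49, 37, 49 and 43) and 4.33 at chr7:77612401-77613600 (37, 33, 38 and 39). Their ratios were at most 1.65. The counting interval of the log2 ratio included 0 in 4 of these 5, and ran from 0.12 to 1.33 at the chromosome 19 island. The same ratio chose the islands, so these intervals describe counting error and are no test of an excess. At the other end, the folds in the authors' deposited table of chr16:31463801-31471200, chr7:51266001-51275800, chr3:109717801-109721400, chr1:47213401-47223400 and chr1:18220401-18226000 were 1.15 to 1.25.

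Members were found on all 20 autosomes, most densely on chromosome 10. There 97 of 2453 tested islands were members (3.95%), followed by 21 of 596 on chromosome 18 (3.52%), and the share was lowest on chromosome 17, at 12 of 658 (1.82%). Chromosome 10 as a whole took fewer of the infant's autosomal reads than of the others', 4.85% against 4.99%, 5.19% and 5.01%. Other chromosomes did so too, such as 19 with 3.15% against 3.65%, 3.84% and 3.65%. Chromosome 18 took more, 2.43% against 2.25%, 2.28% and 2.29%, and so did 17, 2.84% against 2.70%, 2.64% and 2.70%. A link between these shares and the members was not tested. Within 5 Mb of a chromosome end lay 22.9% of the members and 18.6% of the tested islands. With gaps of up to 100 kb allowed, 664 members stood alone, 88 pairs were formed, and 24 runs of 3 or more held 79 members. Chromosome 10 held 8 of the runs. No such count of other islands is given beside these, so the runs are a description of where members lie. Tested islands lie close together themselves, with a median of 2400 bp to the nearest island, against 3400 bp for members.

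The run with most members, chr20:86306601-86450800, held 5 members among 7 tested islands, with 334, 269, 304 and 302 reads in all in order of age. Runs of 4 were at chr15:3536801-3621000 (225, 133, 177 and 199 reads), chr15:4584601-4710600 (217, 162, 221 and 211), chr3:39587001-39753000 (173, 106, 125 and 146), chr14:5227001-5413000 (249, 186, 220 and 249) and chr11:87297001-87496800 (216, 168, 205 and 196). The chromosome 3 run included chr3:39703401-39705200, named above. Tested islands in these 6 spans that were not members had median log2 ratios of 0.4 yr over the pooled older libraries from 0.05 to 0.50 with island scaling, and from -0.55 to -0.10 with background scaling.

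The other 18 runs had 3 members each. On chromosome 10 they were chr10:123401-200600, chr10:496801-626000, chr10:2663001-2795600, chr10:6632801-6740000, chr10:14850801-14979000, chr10:80899201-80983200, chr10:81133201-81260400 and chr10:91757401-91805200. On the other chromosomes they were chr1:2317601-2412200, chr1:40975201-41077600, chr2:44264201-44377200, chr2:49880601-49986200, chr3:39901401-39997000, chr5:1132201-1320600, chr11:105770201-105849800, chr14:5555401-5678200, chr14:126855801-126995000 and chr16:75963601-76005600. In all 18 the summed infant reads, between 82 and 279, came from the smallest library, and the ratios of their members to the highest older value lay between 1.51 and 2.15. With background scaling the same ratios lay between 0.961 and 1.38, so no member of these runs kept a 1.5-fold excess. Other tested islands were present in 17 of the 18 spans, and their median log2 ratio with island scaling was above 0 in 14 and below 0 in 3, from -0.14 to 0.56. With background scaling it was below 0 in all 17.

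Non-members next to members had a higher median infant-to-older ratio than non-members next to other non-members, and the sign of that ratio turned with the scaling. Of tested islands directly beside a member, 62 of 1082 (5.73%) were members themselves, and 10 islands away 42 of 1102 (3.81%) were. The non-members directly beside a member, which the rule did not take, had a median log2 ratio of 0.4 yr over the pooled older libraries of 0.15 with island scaling, and 64.2% of 1020 were above 0. Non-members beside non-members had a median of -0.01, with 49.4% above 0. At 2, 3, 5 and 10 islands away the medians around members were 0.13, 0.09, 0.09 and 0.04. With background scaling all of these turned negative, at -0.45 directly beside members and -0.61 beside non-members. Neighbours share local read density with the member, and no test was made of these medians.

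Whether the older animals differed among themselves is not asked by the rule, which only sets an upper bound to all 3. The order of their values per 1000000 island reads was mixed, and 9 yr was the highest older library in 344 members (37.4%), 22 yr in 292 (31.8%) and 26 yr in 283 (30.8%), against 32.7%, 35.1% and 32.3% of tested islands. The order 9 above 22 above 26 yr was found in 171 members (18.6%, against 14.8%). The most frequent order among members was 9 above 26 above 22 yr, in 173 (18.8%, against 17.8%). The least frequent was 22 above 9 above 26 yr, in 136 (14.8%, against 16.7%). edgeR's quasi-likelihood test of a slope on age over the 3 older libraries, fitted on 57851 islands with Benjamini-Hochberg adjustment at 0.05, called 7 rising (0.0121%) and 3 falling islands (0.00519%), and 0 of the 919 members in either direction. At an unadjusted p under 0.05 8 members had a positive slope and 2 a negative one, against 1010 (1.75%) and 958 (1.66%) of all islands. DESeq2 and limma-voom also called 0 members. Without adjustment DESeq2 had 0 members under 0.05 either way, but only 24 of all 57851 islands with a positive and 12 with a negative slope. With limma-voom 3 members had a positive and 2 a negative slope, against 663 and 1044 of all 57851 islands. The smallest adjusted p of a member was 0.9997, and with 1 residual degree of freedom and 1 animal at each age the test says little about a single island.

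The 5 members with the smallest unadjusted p in each direction of the slope are given here, those with a positive slope first. At chr14:2262601-2264600 the reads were 43, 16, 36 and 49 in order of age, at chr8:27718401-27719600 42, 16, 40 and 45, at chr18:71511201-71512600 48, 18, 31 and 52, at chr19:9830801-9832600 35, 16, 37 and 39, and at chr3:40883401-40886200 92, 42, 72 and 86. In these the 9 yr library was the low one, and the infant and the 26 yr library had similar raw counts. With a negative slope, chr2:108247201-108250200 held 41, 34, 13 and 24 reads, chr14:118476201-118479800 48, 33, 26 and 20, chr16:50592801-50597200 40, 35, 27 and 23, chr1:15881801-15885800 52, 32, 27 and 20, and chr7:19150801-19154200 39, 34, 31 and 21. In 4 of these 5 the counts went down at every step of age, the exception being the chromosome 2 island, lowest at 22 yr. The rule puts the scaled infant value highest and the choice asks for a negative slope, so this order is close to what was selected. A choice by positive slope likewise favours a low 9 yr library. None of the 10 passed the adjusted threshold, and only 2 members with a negative slope had an unadjusted p under 0.05 in edgeR's test.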

How the data were processed

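H3K4me2 ChIP-seq reads of 4 animals and 1 pooled input were analysed. The authors deposited aligned reads of 35 bases, without repeated positions, and 1 island table without a header. Per the submitters' processing notes SICER was used. Settings are read from the name of the deposited table: 200 bp windows, 400 bp gaps, FDR 0.001. The aligner, like the genome build, is not given in the sources used here. The table holds deposited counts of pooled H3K4me2 reads (within 2 reads of those counted here, without repeats, for 98.5% of autosomal islands) and of input reads (equal for 86.5%), the authors' p-value, their fold (a ratio to input) and the adjusted p-value. The read files hold positions, in no other unit.

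Each read was counted at a point 75 bp downstream of its start. Background reads were those in 215550 autosomal 10 kb bins free of islands. Input subtraction scaled the input by background reads and left at least 1 read; a count of 0 was set to 0.5 in log2 ratios. The slope from 9 to 26 yr used edgeR 4.0.16 (R 4.3.3; TMM, minimum count 10; infinite prior degrees of freedom), checked on simulated counts, with DESeq2 1.42.0 and limma 3.58.1 as alternatives. Other steps ran in Python 3.11.15 (with matplotlib 3.10.9 for plots, scipy 1.17.1, numpy 2.4.6, and pandas 2.3.3). Islands named are the 10 members with the largest ratio, the 8 with most reads, the 5 at each end of the authors' fold, those that kept the ratio both with background scaling alone and with input subtraction alone (8 by the rule, and the other 4 named after their values were seen), 3 on each side of the threshold, all runs of 3 or more members and the 5 with the smallest p in each direction of the slope. The members and these rules were chosen with earlier results of these data known.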

Additional observations from a re-analysis of the deposited data

How the results depend on the processing

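The rule, which took 919 islands as reported, took 76 with total autosomal reads, 12 with background scaling, 79 with background scaling and input subtraction (an alternative chosen after seeing the data), 2067 after input subtraction alone, 2585 with a minimum of 50 reads, 154 with 200, 2831 without a filter, 64 with a ratio of 2, and between 1428 and 1652 without 1 older library, where it asks for fewer ratios. TMM (632), an unmoved 5′ end (921) and a move of 150 bp (879) stayed within 1.5 times, but 287, 116 and 153 of the 919 left the set. For the 919 members the median log2 ratios over 9, 22 and 26 yr were 0.55, 0.43 and 0.42 with total reads, 0.39, 0.20 and 0.22 with background scaling, 0.80, 0.80 and 0.79 with TMM, and 1.36, 1.3 and 1.28 after subtraction. Those of the flanks (0.37, 0.51 and 0.55 with island scaling) were 0.061, 0.054 and 0.12 with total reads, -0.10, -0.17 and -0.091 with background scaling, which turned their sign, 0.31, 0.42 and 0.48 with TMM, and 0.36 over 9 yr with flanks of 50 kb. With the other 2 read positions the members' median input density was 8.61 reads per kb (8.64 as reported). Background scaling, also added after seeing the data, turned the median of non-members beside members from 0.15 to -0.45, and was added for the runs and the single flanks as well. For the slope over older ages, rising and falling islands numbered 11 and 1 with background scaling, 10 and 1 with total reads, 0 and 0 with DESeq2 and 4 and 3 with limma-voom, and members 0 in each. The members' median slope was -0.0010 log2 units per year with TMM, 0.0093 with background scaling and 0.0060 with total reads, and from -0.0061 to -0.00048 without 1 library, with no test since 2 libraries leave no residual degrees of freedom. No paired analysis was possible because each age has 1 library and the labels give no replicate numbers. At the members' median of 38 infant reads, counting error alone limits what a single island shows.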

Other observations

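On the X chromosome, which the rule does not cover, 2 of 492 islands with at least 100 reads met the same ratio with the autosomal island totals (0.407%). The median log2 ratio of 0.4 yr over 9, 22 and 26 yr was -0.10, -0.17 and -0.27 there.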
